A study of Zea mays with 54 samples.

Results

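Aquaporins and their relatives form the family of major intrinsic proteins of the plant. The members followed here were the plasma membrane aquaporin PIP1-1, the vacuolar membrane aquaporin tip1 (also TIP1-1) and the silicon channel Lsi6 (also NIP2-3), which were chosen because their signal differed between the layers, and every other gene whose symbol or synonym begins with PIP, TIP, NIP or SIP and a digit, taken by name alone. In RefSeq, 32 maize genes match by name, and 17 of them had a probe on the arrays, out of 866 genes that the arrays' annotation names singly. They were represented by 54 of 49280 probes, and 45 of these, from 14 genes, had values, out of 37662 probes with values in all.

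Plant aquaporins are sorted by sequence into subfamilies. The plasma membrane intrinsic proteins (PIPs) and the tonoplast intrinsic proteins (TIPs) conduct mainly water, across the cell's outer membrane and across the membrane of the vacuole. PIPs fall into the groups PIP1 and PIP2, and in maize PIP1 proteins reach the plasma membrane and conduct water well when they are paired with PIP2 proteins. The nodulin-26-like proteins (NIPs) carry small uncharged solutes, and Lsi6 is known in rice as a channel for silicic acid that helps to distribute silicon in the shoot. The small basic intrinsic proteins (SIPs) lie in inner membranes of Arabidopsis cells.

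Each of 18 slides set the L1, the single outer cell layer of the vegetative shoot apical meristem, against the L2, the labels' name for the corpus beneath it, both from untreated seedlings of the maize inbred line B73 aged 14 days and grown under a daily light and dark cycle. Cells were cut by laser from paraffin sections, 5 to 10 meristems were pooled for a biological replicate, and about 1 ng of RNA was amplified before labelling with Cy3 or Cy5. There were 6 slides for each of 3 spotted cDNA array designs (slides 1 to 6, 7 to 12 and 13 to 18), with L1 in Cy3 on odd slides and in Cy5 on even ones, and 3 readings of each slide. L1 extract numbers 1 to 5 return on all 3 designs, so the designs share numbered extracts, and on slides 1 and 5 the L1 and L2 numbers differ. By number, slides 1 and 2 share L2 extract 2, and slides 5 and 6 share L2 extract 6. The 6 slides of that design are thus not fully independent, though the main fit treats them so.

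All values are log ratios turned so that more signal in L1 gives a positive value. Neither the log base nor the numerator dye is given in the sources used here, so differences are in log units and folds are given for base 2 and for the natural logarithm. The direction is likely rather than stated. It rests on the ocl and kn1 genes named next. The correlation between slides bears on the turning by dye orientation, but not on which dye is the numerator. On slides 7 to 12 and 13 to 18 its median was 0.269 and 0.271 for like dye orientations. For opposite ones it was -0.164 and -0.162. On slides 1 to 6 the medians were 0.451 and 0.0265, so opposite orientations did not correlate negatively there. The same turning was used on that design. With it, every ocl probe there lay above 0 and every kn1 probe below 0 on all 6 slides. A ratio gives no level, a probe's ratio cannot show how abundant its transcript is, and with pooled cells a smaller share of expressing cells and less RNA per cell cannot be told apart.

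The layers were checked against marker genes. The probes called among the outer cell layer (ocl) homeobox genes of the epidermis were higher in L1, and those called of kn1, the knotted1 homeobox gene of the meristem, were lower, for example ocl4 probe 5731 at 2.65 ± 0.181 and kn1 probe 2279 at -1.72 ± 0.0989 (difference ± SE, n = 6 slides; limma adjusted p = 0.000846 and 0.000483). Of the L1 list, 3 of 8, 3 of 5 and 2 of 6 probes were called higher in L1 on the 3 designs, and of the corpus list 3 of 4, 1 of 4 and 1 of 6 lower, with none called the other way. Probes not called went both ways. In the L1 list the fdh1 probes lay from -0.20 to -0.11, ocl3 probe 3789 at -0.15 and cr4 probe 9696 at -0.11, and the rest above 0. In the corpus list knox3 lay at 0.17 and 0.11 on slides 7 to 12 and 13 to 18. There kn1 probe 14467 lay at 0.02, and the rest below 0. The ocl and kn1 genes set the direction, so they do not test it. Leaf primordium markers also moved with the layers, since 3 of 5, 2 of 5 and 3 of 8 probes were called higher in L1 on the 3 designs, with slide sums from 0.34 to 2.99, 2.25 to 4.96 and 2.93 to 7.55 log units, all above 0. The list's rs2 did not move with the others, at -0.36 ± 0.133, -0.20 ± 0.119 and -0.32 ± 0.0881 (adjusted p = 0.228, 0.517 and 0.178), with 6, 4 and 5 of 6 slides below 0. Vascular markers were called on 0 of 10, 0 of 3 and 0 of 13 probes (0, 0 and 2 at an unadjusted p under 0.05), with slide sums from -2.57 to 1.40, -0.84 to 0.07 and -1.16 to 1.73. Markers of green leaf cells were called on 0 of 2, 0 of 5 and 0 of 1 probes (0, 2 and 0 at an unadjusted p under 0.05), with slide sums from -0.20 to 0.79, 0.05 to 2.62 and -0.21 to 0.26. Of all probes of the 3 designs, 2.84%, 1.43% and 1.57% were called. By direction these were 1.5%, 0.89% and 1.02% higher and 1.34%, 0.545% and 0.554% lower in L1. In lists this short 0 called lies near those shares, so nothing is read from the vascular and green leaf counts. The part of leaf primordium, vascular or green leaf cells in the aquaporin values was not tested.

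The genes chosen for their difference are described first. PIP1-1 was lower in L1 by about 1 log unit at its strongest probe on slides 1 to 6 and 13 to 18, Lsi6 was higher in L1 by about as much on slides 1 to 6, and tip1 was lower by about 0.5 log units on 3 of its 7 probes. On slides 1 to 6, limma called 6 of the family's 24 probes at an adjusted p under 0.05, 1 higher and 5 lower in L1, where 2.84% of all probes of the design were called (1.5% higher and 1.34% lower). On slides 7 to 12 it called 0 of 5 (3 at an unadjusted p under 0.05), where 1.43% of all probes were called (0.89% higher and 0.545% lower). For slides 13 to 18 it called 4 of 16, all lower in L1, where 1.57% were called (1.02% higher and 0.554% lower). All 10 called probes belong to the 3 genes that this same difference chose, so nothing is read from those counts. Over all probes, 14.8%, 13.8% and 12.9% were at an unadjusted p under 0.05 on the 3 designs, the shares against which the unadjusted counts of named lists are to be set.

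**Figure D1:**
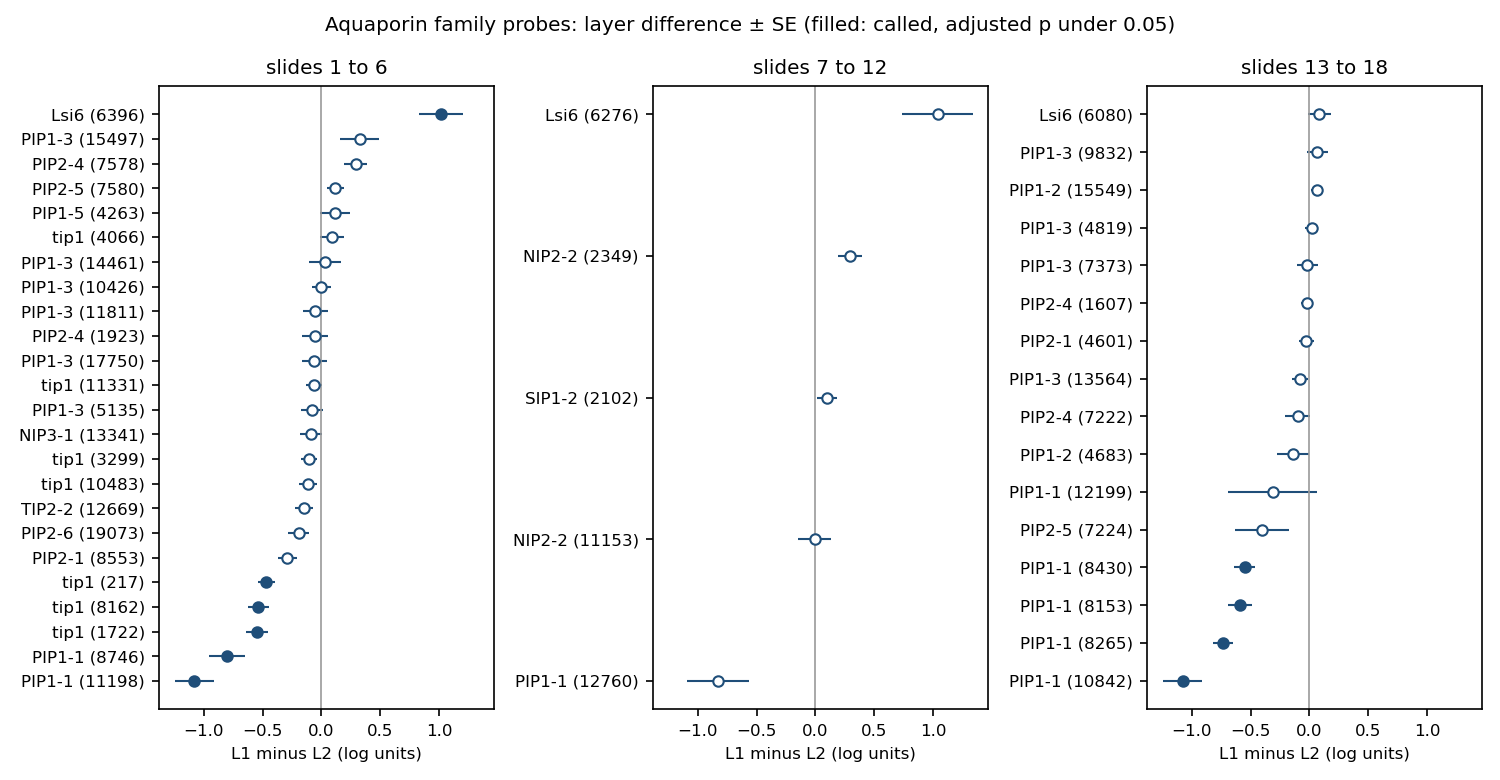
Layer difference of the 45 family probes with values, in log units of L1 minus L2, bars being the standard error from limma (n = 6 slides), for each array design and ordered by size within it; probe numbers are in brackets and filled points were called at an adjusted p under 0.05. An Lsi6 probe lies at the top of every panel and a PIP1-1 probe at the bottom, and the genes taken by name lie between -0.40 and 0.32. Lsi6 and PIP1-1 were chosen by this difference, and on slides 13 to 18 the Lsi6 probe lies at only 0.08 ± 0.10.

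Among the PIP1 genes, PIP1-1 was measured by 8 probes on the 3 designs, and all 8 differences were below 0. These probes share slides and numbered extracts, and this difference chose the gene, so the 8 signs are not independent. The sign of probe 12199 depended on the reading, as given below. On probe 11198 the values of slides 1 to 6 were -0.68, -1.09, -1.92, -1.24, -1.39 and -0.16, and the difference was -1.08 ± 0.169, a fold of 2.12 (base 2) or 2.95 (natural logarithm) lower in L1. All 6 slides lay below 0, slide 3 the furthest and slide 6 close to it. The other probe of that design, 8746, read -0.24, -0.73, -1.28, -0.81, -1.53 and -0.24, with a difference of -0.80 ± 0.152. Slide 6 held the value nearest 0 on both probes, and slides 3 and 5 held the largest values. Over all probes of that design, 4.18% were below 0 on all 6 slides, against 5.47% and 4.46% on the other designs. PIP1-1 was chosen by this difference, so nothing is read from its sign beside those shares.

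The same pair of PIP1-1 clones was spotted again on slides 13 to 18. The clone of probe 11198 (there probe 10842) read -0.69, -1.81, -1.47, -1.15, -0.66 and -0.69 on those slides, a difference of -1.08 ± 0.163. The clone of probe 8746 (there probe 8430) read -0.16, -0.98, -0.63, -0.75, -0.35 and -0.43, a difference of -0.55 ± 0.0903. Both lay below 0 on every slide, and on both designs the first clone gave the larger difference of the pair. A further pair of probes found on slides 13 to 18 alone, 8265 and 8153, gave -0.74 ± 0.0867 and -0.59 ± 0.102, with slide values from -1.02 to -0.47 and from -0.90 to -0.26.

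The fifth PIP1-1 probe of slides 13 to 18, number 12199, stood apart from the other four. Its slide values were -1.23, -1.11, 1.78, 0.11, -0.83 and -0.60, and its difference of -0.31 ± 0.378 was not called. The 3 readings of a slide differed on this probe with an SD of 1.48 log units, against 0.139 to 0.329 on the other four. Its difference was 0.37 from the L readings, -0.17 from M and -1.14 from H, so both its size and its sign depended on the reading.

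On slides 7 to 12, PIP1-1 had a single probe of another clone, 12760. It read -0.59, -0.66, -1.52, -1.15, 0.60 and -1.68, a difference of -0.83 ± 0.263 that was not called. Slide 11 alone lay above 0. Without slide 11 the difference was -1.11, which was also not called. On slide 11 the 3 readings correlated at a mean r of 0.339 over all probes, the lowest of the 18 slides, the next being 0.483. Among the layer markers, kn1 probe 2279 was at -1.99 there and ocl4 probe 5731 at 1.61, the lowest of its 6 slides, while lg3 probe 2280, of the corpus list, was at 0.03 against a difference of -0.14 over the design (not called). Slide 11 is the only one with L1 and L2 extracts numbered 7, so the extract and the slide cannot be told apart.

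**Figure D2:**
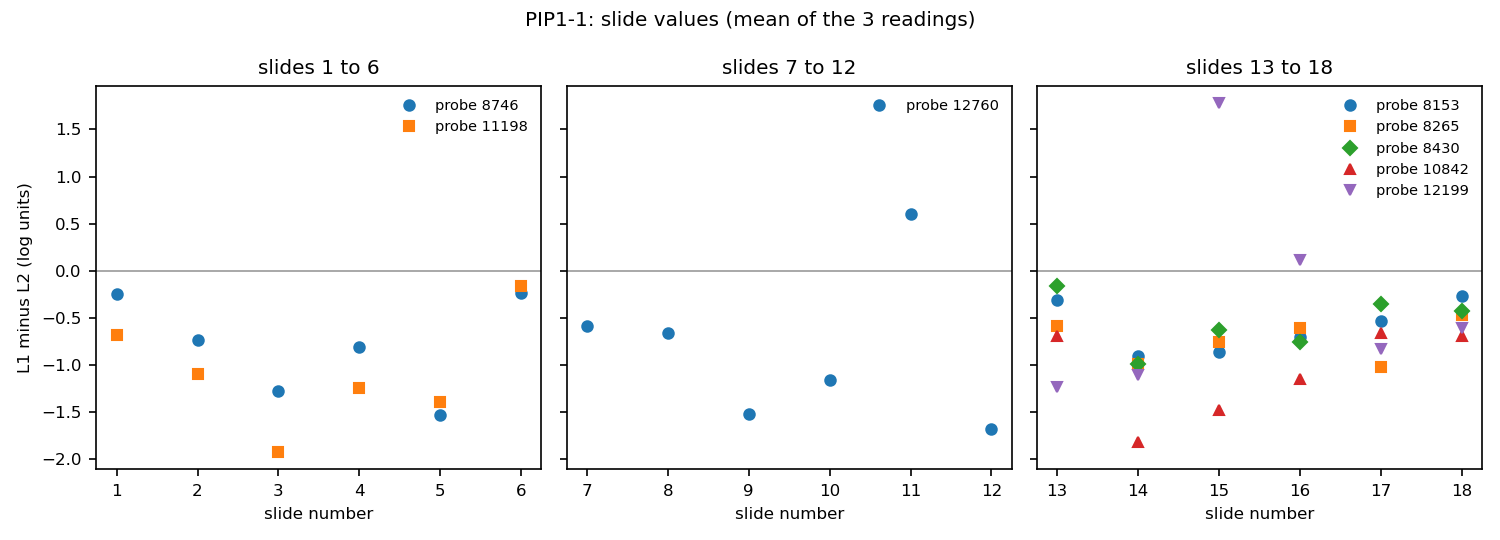
PIP1-1 values by slide, L1 minus L2 in log units, 1 panel per array design and 1 symbol per probe; each point is the mean of the 3 readings of a slide. All points lie below 0 except probe 12760 on slide 11 (0.60) and probe 12199 on slides 15 (1.78) and 16 (0.11).

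The other PIP1 genes were taken by name. PIP1-3, whose RefSeq entry also carries the name PIP1-4, had 6 probes on slides 1 to 6 with differences from -0.08 to 0.32, and 4 on slides 13 to 18 from -0.08 to 0.07. None of its 10 probes was called, where 2.84% and 1.57% of all probes of these designs were. The probe furthest from 0, 15497, read 0.69, -0.41, -0.03, 1.09, 0.24 and 0.37, a difference of 0.32 ± 0.166 (limma adjusted p = 0.411), and 4 of its 6 slides lay above 0. PIP1-2 had values on 2 probes of slides 13 to 18, at -0.14 ± 0.137 and 0.06 ± 0.0524 (adjusted p = 0.715 and 0.670), and PIP1-5 on 1 probe of slides 1 to 6, at 0.12 ± 0.126 (adjusted p = 0.735). Over these 13 probes the median difference was 0.00, the lowest adjusted p was 0.411, and none was at an unadjusted p under 0.05. Their precision differed, since the 95% interval of PIP1-3 probe 4819 ran from -0.11 to 0.15 and that of PIP1-3 probe 15497 from -0.05 to 0.69. PIP1 sequences are alike, and a spotted cDNA can bind the transcript of a near relative, so the split of signal between PIP1-1 and the other PIP1 genes is uncertain. The difference between PIP1-1 and the other PIP1 genes was not tested, because PIP1-1 was chosen by its value.

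The PIP2 genes, the partners of PIP1 proteins in the plasma membrane, had values on 9 probes of 4 genes, on slides 1 to 6 and 13 to 18. limma called 0 of 9, where 2.84% and 1.57% of all probes of these designs were called. At an unadjusted p under 0.05 were 2 of the 9, both among the 5 of slides 1 to 6, where 14.8% of all probes were. PIP2-1 probe 8553 on slides 1 to 6 read -0.37, -0.31, 0.00, -0.31, -0.35 and -0.40, a difference of -0.29 ± 0.0779 (adjusted p = 0.0945). The other slides lay close together below 0, and slide 3 lay at 0. Another PIP2-1 clone on slides 13 to 18, probe 4601, was at -0.03 ± 0.0608 (adjusted p = 0.904). PIP2-4 probe 7578 read 0.04, 0.24, 0.39, -0.02, 0.50 and 0.58 on slides 1 to 6, a difference of 0.29 ± 0.0972 (adjusted p = 0.190), with 5 of 6 slides above 0. The same clone on slides 13 to 18, probe 7222, was at -0.10 ± 0.105 (adjusted p = 0.746), with 3 of 6 slides above 0. The other PIP2-4 clone was at -0.06 ± 0.111 and -0.02 ± 0.0523 on these designs.

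PIP2-5 was read by 1 clone on both designs. On slides 1 to 6 (probe 7580) it was at 0.12 ± 0.0693 with slide values from -0.05 to 0.24 (adjusted p = 0.472). On slides 13 to 18 (probe 7224) it read -0.31, -0.96, 0.84, -0.91, -0.999 and -0.09, a difference of -0.40 ± 0.230 (adjusted p = 0.517). Of those slides 5 lay below 0 and slide 15 well above, and on this probe the readings of a slide differed with an SD of 0.802. PIP2-6, on 1 probe of slides 1 to 6, was at -0.19 ± 0.088 (adjusted p = 0.344).

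tip1, the aquaporin of the vacuolar membrane, had values on 7 probes, all on slides 1 to 6, and they fell into 2 sets. Probe 1722 read -0.67, -0.89, -0.59, -0.27, -0.62 and -0.28, a difference of -0.55 ± 0.0937, a fold of 1.47 (base 2) or 1.73 (natural logarithm) lower in L1. Probes 8162 and 217 were at -0.54 ± 0.0881 and -0.47 ± 0.0758, and all 3 lay below 0 on every slide, with values from -0.89 to -0.21. The other 4 probes were at -0.12 ± 0.0764 (10483), -0.11 ± 0.0718 (3299), -0.06 ± 0.0712 (11331) and 0.09 ± 0.102 (4066), with slide values from -0.37 to 0.80, and none was called. On 5 of 6 slides every probe of the first set lay below every probe of the second. The sets are the called and the uncalled probes, split by these same values, so this count does not test the split. Averaged over its 7 probes, tip1 was at -0.25 ± 0.0736 and was not called. The probes carry different clones of a gene with close relatives, which parts of the transcript they cover was not analysed here, and the split into 2 sets was made after the values were seen.

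**Figure D3:**
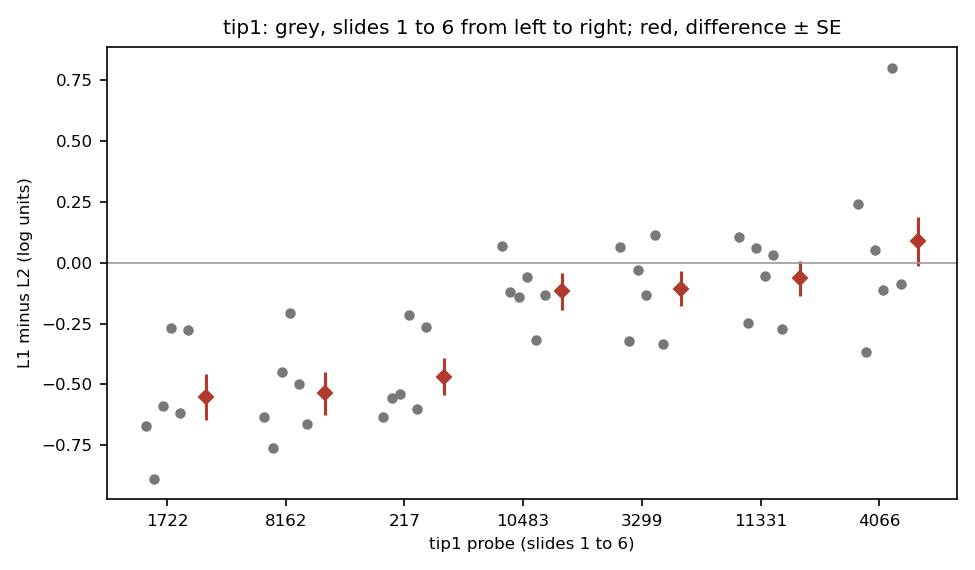
The 7 tip1 probes of slides 1 to 6, ordered by their difference; grey points are the 6 slides from left to right and red diamonds the limma difference ± SE, L1 minus L2 in log units. Probes 1722, 8162 and 217 lie below 0 on every slide, and the points of the other 4 lie on both sides of 0.

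The other vacuolar aquaporin with values, TIP2-2 (probe 12669), was at -0.15 ± 0.0782 on slides 1 to 6 (adjusted p = 0.416), with 5 of 6 slides below 0. No values were present for TIP2-1 on its 3 probes, nor for a tip1 probe, for NIP1-1, for pip2b (PIP2-2) or for 2 probes of PIP2-1, all on slides 7 to 12, nor for 1 probe of PIP1-2 on slides 1 to 6. These 9 probes were not analysed here.

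Lsi6 was spotted as the same clone on all 3 designs. On slides 1 to 6 (probe 6396) it read 1.51, 1.10, 0.18, 1.63, 1.31 and 0.38, a difference of 1.02 ± 0.186, a fold of 2.03 (base 2) or 2.77 (natural logarithm) higher in L1. All 6 slides lay above 0, with slides 3 and 6 well below the rest. Of all probes of the design, 3.25% also did (3.59% and 4.49% on the other designs). Lsi6 was chosen by this difference, so nothing is read from its sign beside those shares. On slides 7 to 12 (probe 6276) it read 1.66, 0.37, 0.47, 1.70, -0.22 and 2.24, a difference of 1.04 ± 0.300 that was not called. Slide 11 alone lay below 0, and without it the difference was 1.25, also not called. The L, M and H readings of that design gave 0.44, 1.15 and 1.52.

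Lsi6 on slides 13 to 18 (probe 6080) read 0.38, -0.11, -0.15, 0.29, 0.36 and -0.27, a difference of 0.08 ± 0.10 that was not called. Of these 3 slides lay above 0 and 3 below, and the 95% interval of the difference, -0.15 to 0.32, did not reach the values of the other designs. The designs were deposited as separate tables, how each was normalised is not stated, and their difference was not tested. The slides with L1 extracts 1, 4 and 5 held the 3 highest Lsi6 values on each design, in spite of the sizes. The order among these extracts differed between designs, as did that of extracts 2 and 3. They read 1.51, 1.63 and 1.31 on the first design, then 1.66, 1.70 and 2.24 on the second, and 0.38, 0.29 and 0.36 on the third. Extracts 2 and 3 read 1.10 and 0.18, then 0.37 and 0.47, and then -0.11 and -0.15. With 5 extracts shared by all designs no correlation was computed, and the pattern was noticed in the values.

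PIP1-1 kept no such order for every extract. Extract 1 gave -0.68 on probe 11198, -0.59 on probe 12760 and -0.69 on probe 10842, and extract 4 gave -1.24, -1.15 and -1.15, so each of them varied by about 0.1 log units between designs. Extract 3 gave -1.92, -1.52 and -1.47, the lowest or next to lowest value on each probe. Extract 5 gave -1.39, -1.68 and -0.66, and extract 2 gave -1.09, -0.66 and -1.81. On slides 1 to 6, extracts 1 and 5 were paired with L2 extracts of another number.

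**Figure D4:**
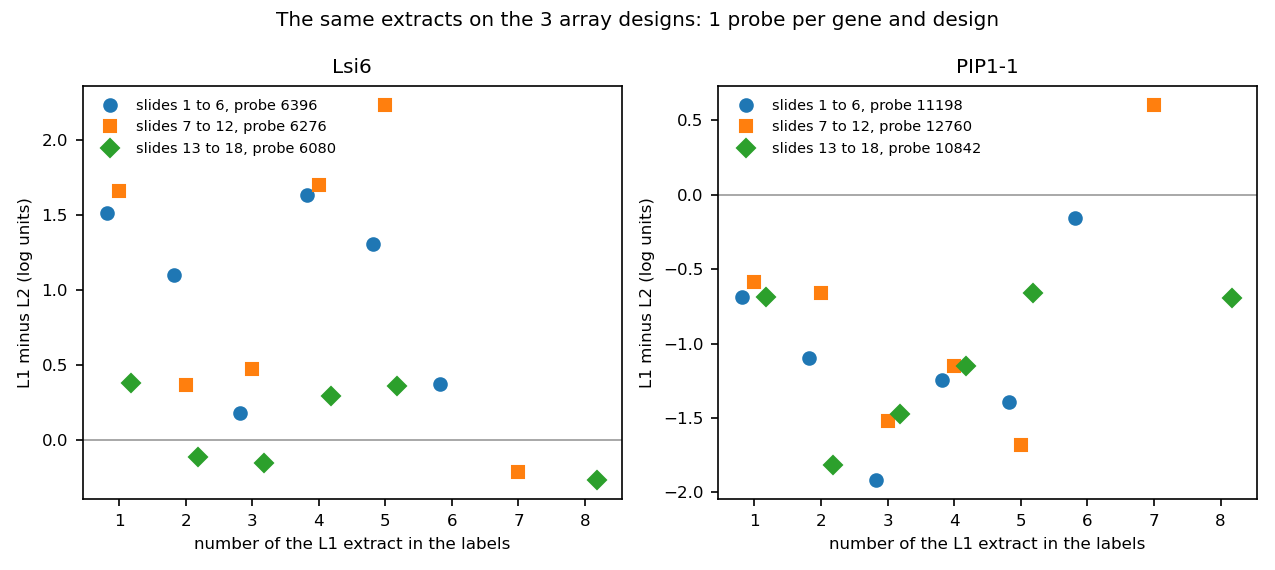
Lsi6 (left, 1 clone on all designs) and PIP1-1 (right; probes 11198 and 10842 are 1 clone, 12760 another) against the number of the L1 extract, L1 minus L2 in log units, 1 symbol per array design with points set slightly apart. L1 extracts 1, 4 and 5 hold the 3 highest Lsi6 values of each design, and the only PIP1-1 value above 0 is that of extract 7 (slide 11).

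The remaining NIP and SIP genes were taken by name, and limma called 0 of their 4 probes (1 at an unadjusted p under 0.05). On their designs, slides 1 to 6 and 7 to 12, 2.84% and 1.43% of all probes were called. NIP2-2, in the same NIP2 group as Lsi6, had 2 clones on slides 7 to 12. Probe 2349 read 0.54, 0.58, 0.23, -0.01, 0.12 and 0.30, a difference of 0.30 ± 0.0997 (adjusted p = 0.268), with 5 of 6 slides above 0. Probe 11153 was at -0.01 ± 0.139 (adjusted p = 0.986), with slide values from -0.74 to 0.38. NIP3-1, a boric acid channel of maize, was at -0.09 ± 0.0897 on slides 1 to 6 (adjusted p = 0.710), and SIP1-2 at 0.10 ± 0.0821 on slides 7 to 12 (adjusted p = 0.642). Over all 27 probes of the 11 genes taken by name, 0 were called and 3 were at an unadjusted p under 0.05, with a median difference of -0.02. Of all probes of the 3 designs, 2.84%, 1.43% and 1.57% were called. The 0 of 27 lies near those shares and is not read as a result about these genes. By design the 3 at an unadjusted p under 0.05 were 2 of 14, 1 of 3 and 0 of 10, beside 14.8%, 13.8% and 12.9% of all probes. The median over all probes of the 3 designs was 0.00, -0.02 and 0.00.

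The dye term of the fit, which the choice of the genes did not use, was called on 0 of the family's 45 probes, with a lowest adjusted p of 0.126 (limma) and 4, 0 and 1 probes of the 3 designs at an unadjusted p under 0.05. Over all probes of these designs it was called on 2.88%, 0.0111% and 0%, and 25.2%, 8.04% and 6.66% were at an unadjusted p under 0.05. Its values lay between -0.33 and 0.40 log units over the family, the highest on Lsi6 probe 6276. On PIP1-1 probe 11198 it was 0.25 ± 0.169 and on Lsi6 probe 6396 it was 0.02 ± 0.186.

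Other transport genes were compared through their symbols, a list that took in the proton pumps mha2 and mha4, the vacuolar pyrophosphatases vpp1 and vpp3, the potassium channel ZMK2 and the sucrose transporter sut1. The sut1 probes were also counted in the vascular marker list above. The counts that follow are those of the transport list. limma called 0 of 6, 0 of 2 and 0 of 7 of its probes on the 3 designs, where 2.84%, 1.43% and 1.57% of all probes were called. At an unadjusted p under 0.05 were 1, 1 and 0, where 14.8%, 13.8% and 12.9% of all probes were. The list's median differences were 0.06, -0.13 and 0.01. The pair with the smallest unadjusted p-values were vpp1 probe 18612 at 0.21 ± 0.0775 (adjusted p = 0.241) and mha4 probe 1132 at -0.22 ± 0.0646 (adjusted p = 0.209), the latter below 0 on 6 of 6 slides.

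Named genes with the most similar slide values were sought for the strongest probe of each gene by the root mean square distance over 6 slides. This distance takes in the size of the difference, which chose these genes. Genes with a difference of like size therefore lie nearest, and nothing is read from the distances or their medians. For PIP1-1 probe 11198 they were 3 probes of AGP2 (LOC542737), at distances of 0.510 to 0.541 log units where the median over 1669 probes was 1.23. Likewise on slides 13 to 18 they were LOC606477 (0.447), AGP2 (0.456) and kn1 (0.666), and on slides 7 to 12 a pair of probes of mdh6, an NADP-dependent malate dehydrogenase, (0.604 and 0.680) and LOC542109 (0.685). For tip1 probe 1722 they were the profilin gene prf1 (0.195), dxr, an enzyme of plastid isoprenoid synthesis, (0.248) and the kinase gene TOR (0.257), with a median over all of 0.639. For Lsi6 probe 6396 they were ocl1 (0.508), MFS18 (0.560) and a second ocl1 probe (0.595), and for probe 6276 ocl3 (0.597), ocl1 (0.744) and the proline-rich protein gene prp2 (0.749). On slides 13 to 18, where Lsi6 lay near 0, the nearest were ACK2 (0.155), pglcat8 (0.158) and the translation initiation factor gene eIF-4A (0.161), with a median over all of 0.351.

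Several calls were lost when 1 slide was left out. A fit with fewer slides also has fewer residual degrees of freedom, and the number of called probes of the whole design changed too. A lost call is thus not credited to the slide left out. On slides 1 to 6 the family's count of called probes was 2 without slide 2, PIP1-1 probe 11198 and tip1 probe 1722. For slides 13 to 18 it was 1, PIP1-1 probe 8265, without slide 13, 14, 16 or 17 and 0 without slide 15. Lsi6 probe 6396 lost its call without slide 1, 2 or 5, with differences over all alternatives between 0.61 and 1.22. PIP1-1 probe 8746 lost it without slide 2, 3, 4 or 5, with differences between -0.998 and -0.68, and tip1 probes 217 and 8162 without slide 2 and probe 1722 without slide 1 or 3. Without slides 1 and 5, whose extract numbers differ between the layers, Lsi6 probe 6396 was at 0.61 and tip1 probes 217, 1722 and 8162 at -0.44, -0.53 and -0.50, and none of these was called. The differences of PIP1-1 probe 11198 lay between -1.37 and -0.93 over its 16 alternatives.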

How the data were processed

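The authors deposited 1 table for each of the 3 array designs, 54 columns in all, of values taken here for log ratios between the channels. Normalisation, log base and numerator dye are not stated in the labels or the tables. A probe had values in all columns of its design or in none. Readings L, M and H (letters not explained in the labels) were averaged, so that a slide is 1 replicate, and turned to L1 minus L2. The labels call the slides biological replications.

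Per design, limma 3.58.1 (R 4.3.3) fitted a layer and a dye term with lmFit and eBayes (4 residual degrees of freedom). The p-values are two-sided, with Benjamini-Hochberg adjustment across a design's probes with values, and calls are at an adjusted p under 0.05. Probes needed values on 4 slides, 2 per orientation. For arrays, their number limits the precision. Gene names came from the array annotation and, for synonyms, from RefSeq's gene table for Zm-B73-REFERENCE-NAM-5.0.

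The members and lists were chosen with earlier results of these data known. The difference chose PIP1-1, tip1 and Lsi6, which are therefore given without p-values. Their calls rest on an adjusted p of that same difference, so they describe the probes and are no test of these genes. All probes of the family are accounted for. The likeness rule took the 3 probes of other named genes nearest to the strongest probe of each chosen gene per design. The table used for names holds no descriptions, so the lists of further aquaporins and of transport genes by description were not used, and transport genes were taken by symbol alone. The marker list's fdh1 is a match by symbol whose function was not checked. Scripts were tested on simulated data. Alternatives were single readings or their median, no dye term, centring, scaling, another variance prior, 1 mean per gene, a random block for shared L2 extracts (statmod 1.5.0), and left-out slides. Figures used Python 3.11.15 and matplotlib 3.10.9.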

Additional observations from a re-analysis of the deposited data

Results flagged for a closer look

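In 2 of 45 groups of 6 slides 1 slide stood far from the rest, by a gap over 0.625 of the group's range, and chance gives about 1 in 20. PIP2-1 probe 8553 was at 0.000476 on slide 3, where the nearest of the other slides was at -0.31. PIP2-4 probe 1607 was at -0.204 on slide 18, where the nearest of the others was at -0.0165.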

How the results depend on the processing

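No alternative turned the sign of a called difference. Each called probe had 1 sign on all 6 slides, so leaving slides out could not turn it. Among the uncalled probes of the chosen genes, PIP1-1 probe 12199 ran from -1.14 to 0.37 over its alternatives. tip1 probe 4066 ran from -0.07 to 0.20, and the other uncalled probes of these genes kept their sign. Every value is a difference of L1 and L2 within a slide, so the layers are paired by slide in the fit itself. On slides 1 and 5 that pair is of extracts with different numbers. Of the genes taken by name, 3 of 406 alternative fits were called, PIP2-1 probe 8553 with the M reading and with the L2 extract as a random block (adjusted p = 0.0328 and 0.0481) and PIP2-4 probe 7578 with the M reading (0.0470); over all alternatives the adjusted p of PIP2-1 probe 8553 ran to 0.903 and that of PIP2-4 probe 7578 to 0.905.

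All called probes of slides 1 to 6 numbered 409, and 261 with the L reading alone, 258 with no dye term, 78 without slides 1 and 5, which leaves 4 slides, and 211 to 417 with 1 slide left out. On slides 7 to 12 they numbered 129, and 82 with L alone, 76 with H alone, 81 with centred and scaled slides, 197 with a trend and a robust prior, and 38 to 65 with 1 slide left out. On slides 13 to 18 they numbered 224, 79 with L alone and 88 to 231 with 1 slide left out. The shared L2 extract as a random block gave 577 (estimated correlation -0.207), with 7 family probes called. The whole-design counts moved by over 1.5 times without slide 1, 2, 3 or 5, without any 1 slide of slides 7 to 12, and without any 1 of slides 13 to 17.

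Called family probes of slides 1 to 6 numbered 6, and 2 without slides 1 and 5 (both PIP1-1), 2 with 1 mean per gene (PIP1-1 and Lsi6), where a gene counts once, and 2 to 6 with 1 slide left out. On slides 13 to 18 they numbered 4, and 1 with L alone, 1 with centred and scaled slides, 1 with 1 mean per gene (PIP1-1) and 0 to 4 with 1 slide left out. PIP1-1 probe 8265 was at -0.44 with L alone against -0.74. Where no construction shows it, the cause was not tested. Spot brightness was not used here, so what signal over background limits is unknown.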
